A study of Mus musculus with 13 samples.

Results

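The comparison set the second cycle of constant darkness against the first in the aorta of mice. Mice of the strain c57/Bl6 had been entrained for 2 weeks to 12 h of light and 12 h of dark and then spent 36 h without light before the first aortae were taken. Collection ran every 4 h for 48 h, with total RNA from a pool of 6 aortae at each time and 1 array per pool, apart from CT18, which had 2 arrays. CT is the labels' clock time in hours. The first cycle held the pools CT18, CT22, CT26, CT30, CT34 and CT38, and the second cycle the pools CT42, CT46, CT50, CT54, CT58 and CT62. All 12 pools came from darkness, so no pool taken under light and dark stands beside them, and the labels give neither age nor sex. Each second-cycle pool was paired with the first-cycle pool taken 24 h earlier, with the duplicate CT18 arrays entered as 1 pool through their mean log2 intensity.

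A probe set, the group of short probes that reads 1 transcript, was described when its intensity differed in the same direction in all 6 pairs and when its geometric mean intensity over the 12 pools was 200 or more, which is called well above background here. Of 12422 probe sets, 3674 were well above background, and 104 of these were higher in the second cycle in all 6 pairs (2.83%) and 78 were lower in all 6 pairs (2.12%). Counted by the brightest probe set with 1 named gene, 77 of 2958 genes were higher (2.60%) and 61 were lower (2.06%). These 138 genes were chosen by the direction of their differences, so their counts and sizes are given as a description and test nothing. The limit of 200 was met in both cycles by 97 of the higher and 66 of the lower probe sets, while 7 and 12 met it only through the cycle in which they were brighter. Among the 7 were Sf3a2, Elof1 and Nf2, with first-cycle medians of 110, 182 and 189. Among the 12 were Ace, Zfp36, Vps72 and Tcof1, with second-cycle medians of 171, 180, 192 and 196. Median centring of the arrays in place of the deposited scaling gave 132 higher and 48 lower probe sets, which raised the share of higher probe sets among all that were chosen from 57.1% to 73.3%. The mean difference is called a shift below, always as second minus first cycle in log2 intensity, with its standard error from the paired limma fit over 6 pairs.

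Clock proteins keep daily time through a loop in which Clock and Arntl switch on the Per and Cry genes, whose products then hold Clock and Arntl back. In darkness the loop runs on its own period, which in mice lies close to a day but need not equal it. Pools a day apart therefore share nearly the same clock phase and differ in the time spent in darkness, and whatever else differed between earlier and later harvests cannot be told apart from it. RNA of a dissected artery comes from smooth muscle, endothelium and matrix-making fibroblasts, and from the fat that surrounds the vessel.

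Genes that define the vessel wall were bright in every pool. Acta2, the smooth muscle actin, was between 3777 and 6848 in the first cycle and between 4234 and 5725 in the second, and Eln, which encodes elastin, was between 2958 and 6909 and between 3212 and 6108. Of the endothelial markers, Cdh5 was between 440 and 919 over the 12 pools and Pecam1 between 39.3 and 104, and Smtn, a smooth muscle gene, was at the floor in 11 pools. Fat genes were also detected in every pool: Adipoq was between 8123 and 9899 over the 12 pools, and Ucp1, the heat-making protein of brown fat, between 5896 and 10111. The deposited intensities had been scaled to 1 trimmed mean near 200 on each array, and the array medians overlapped between the cycles, at 73.3 to 87.6 in the first and 70.4 to 84.7 in the second. The 2 CT18 arrays differed by a median of 0.14 in log2 intensity over the probe sets well above background, and for 1 in 10 of them by 0.47 or more. That difference between 2 arrays of 1 time was larger than the shift itself for 34 of the 104 higher and 21 of the 78 lower probe sets.

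No probe set passed the test. In the paired limma fit over 7453 probe sets, 0 (0%) had an adjusted p under 0.05, the lowest adjusted p was 0.371, and 601 had an unadjusted p under 0.05, of which 266 were higher and 335 lower. Over the 3674 probe sets well above background, 1017 were higher in 3 of the 6 pairs, 857 in 2 and 778 in 4, so those with 1 direction throughout form the tails of the distribution.

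**Figure D1:**
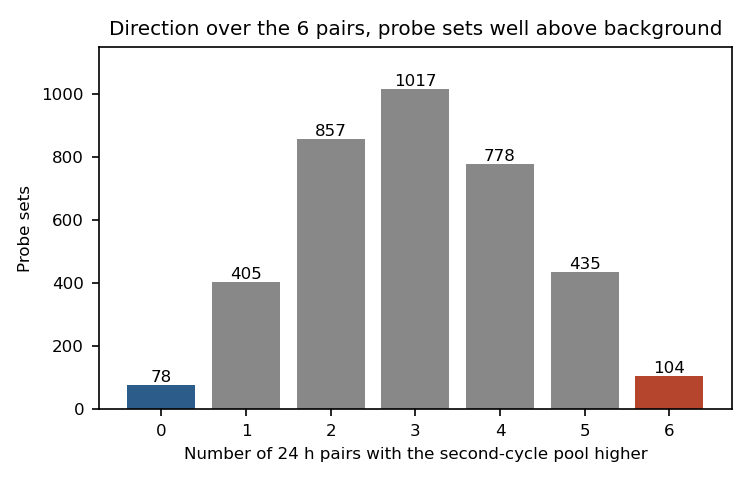
Number of probe sets well above background (vertical axis) by the number of 24 h pairs in which the second-cycle pool was higher (horizontal axis). The most filled bar is 3 of 6 pairs, with 1017 probe sets, and the bars at the ends hold the 78 lower and 104 higher probe sets.

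The shifts were small. Among the higher probe sets the median shift was 0.24, with a range from 0.07 to 2.08, and 10 exceeded 0.5. Among the lower ones it was -0.28, with a range from -0.09 to -0.64, and 9 exceeded 0.5 in size. The median size over all 3674 probe sets was 0.10. Groups rarely separated: all 6 second-cycle pools lay above all 6 first-cycle pools for 6 genes (0.203% of 2958), namely Sf3a2, Nf2, Mrpl12, Mrps11, Swi5 and Bud31, and below them for 5 genes (0.169%), namely Dpm1, Cd47, Fryl, Lims1 and Fahd1. A further probe set of Cd47 kept the sign of the shift (-0.20 ± 0.11, lower in 5 pairs). That of Sf3a2 was dim, with a geometric mean of 60.9 and a shift of 0.44 ± 0.39. It was higher in 2 pairs and lower in 2. Further probe sets of Bud31 (-0.19 ± 0.15, lower in 5 pairs) and Fahd1 (0.16 ± 0.18, higher in 5) had the opposite sign.

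Direction went with brightness. Among the 919 brightest probe sets, with geometric means from 810 to 18953, 46 were higher and 6 lower in all pairs, and the median shift was 0.05. Among the 919 dimmest, from 200.04 to 288, 15 were higher and 30 lower, with a median shift of -0.05. The higher probe sets had a median geometric mean of 635, the lower ones 325, and all probe sets well above background 432. The part of brightness in the results that follow was not tested.

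Each pair was also left out of the choice in turn, as a description and not a test. The probe sets that kept the direction were the same 104 higher or 78 lower ones each time. The shares therefore differ only through the number chosen on the other 5 pairs. When probe sets were chosen on the other 5 pairs, those higher in all 5 were also higher in the pair CT30 to CT54 in 76.5% of cases, in CT34 to CT58 in 73.2% and in CT38 to CT62 in 69.3%, beside 48.8%, 49.2% and 47.5% of all 3674 probe sets. Of the remaining pairs, CT22 to CT46 gave 57.1% beside 51.3%, CT18 to CT42 gave 48.6% beside 54.4%, and CT26 to CT50 gave 44.3% beside 50.4%. The lower probe sets did the same, with 62.4% to 72.9% in the 3 later pairs and 39.2% to 48.1% in the 3 earlier ones, beside 45.6% to 52.5% of all probe sets. The 3 later pairs thus had larger shares than the 3 earlier ones. Their pair differences correlated with each other across probe sets at 0.18 to 0.33, while the other correlations between pairs lay between -0.17 and 0.17. These are correlations across genes that share arrays, given as a description. The second-cycle array had the shallower low tail in 4 of 6 pairs, among them the 3 later ones, with a 5th percentile of the raw intensities of -76.1, -69.9 and -69.2 against -137, -95.3 and -86.7 in the partners. The fourth was CT18 to CT42, with -114 and -140 on the CT18 arrays against -123. The part of that difference in the shifts was not tested.

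**Figure D2:**
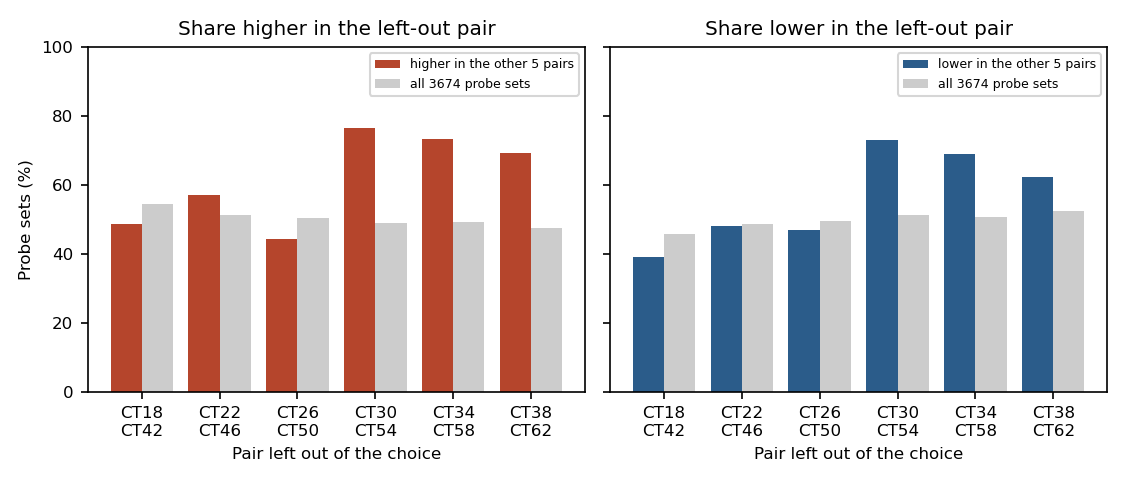
Share of probe sets (%) that kept the direction in a pair left out of the choice, for probe sets higher (left) or lower (right) in the other 5 pairs, beside the share of all 3674 probe sets (grey). The probe sets that kept it are the same 104 (left) or 78 (right) in every coloured bar. The coloured bars stand well above the grey bars in the 3 later pairs and near or below them in CT18 to CT42 and CT26 to CT50.

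The higher genes included Dnaja1 and Chordc1 of the cytosolic heat shock list and Hspa5 of the endoplasmic reticulum folding list, and, named after their values were seen, Cct7 and Stub1. Chaperones hold and fold other proteins. Dnaja1 encodes a co-chaperone of Hsp70 in the cytosol, Chordc1 a partner of Hsp90, Cct7 a subunit of the ring that folds actin and tubulin, Stub1 a ubiquitin ligase that works with Hsp70, and Hspa5 the Hsp70 of the endoplasmic reticulum. The upstream sequences of Dnaja1 and Hspa5 are printed because each holds a match to an element named for the stress response that such genes are known for: GAANNTTC for the heat shock element, and CCAAT, 9 bases of any kind and CCACG for the endoplasmic reticulum stress element, both searched on both strands. They are the 250 bases before the gene start in the RefSeq table of GRCm38.p6, 5′ to 3′, with the match in capitals. The Dnaja1 window (chr4:40722218-40722467, plus strand) belongs to the first of 3 starts in the table, and the other 2 windows hold no match. The Hspa5 window (chr2:34771840-34772089, plus strand) has its match 65 bases before the start.

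Dnaja1: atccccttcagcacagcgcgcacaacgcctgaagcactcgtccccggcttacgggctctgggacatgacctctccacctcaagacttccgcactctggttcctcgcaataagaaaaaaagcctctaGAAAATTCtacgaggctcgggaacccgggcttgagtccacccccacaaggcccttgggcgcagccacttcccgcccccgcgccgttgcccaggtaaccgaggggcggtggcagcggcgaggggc
Hspa5: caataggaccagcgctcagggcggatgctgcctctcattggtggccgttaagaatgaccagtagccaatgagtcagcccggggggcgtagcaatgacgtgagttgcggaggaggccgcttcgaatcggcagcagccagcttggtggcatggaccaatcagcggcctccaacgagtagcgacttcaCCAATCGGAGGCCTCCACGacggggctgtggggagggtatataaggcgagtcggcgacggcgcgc

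Of all 27025 genes with a promoter in the table, 7.73% held the heat shock letters and 0.13% the endoplasmic reticulum stress letters. Among the 66 higher genes that matched the table, 5 held the first (7.58%) and 1 held the second (1.52%), and among the 2369 matched genes well above background the shares were 5.91% and 0.253%. The heat shock letters were thus about as common in the higher genes as elsewhere.

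Dnaja1 had intensities of 617, 400, 279, 389, 250.1 and 491 from CT18 to CT38, and of 758, 619, 318, 458, 492 and 1333 from CT42 to CT62. The cycles overlapped, and CT62 was the highest of the 12 pools. Its shift was 0.63 ± 0.17, with an adjusted p of 0.579 in the paired limma fit. Chordc1 ran from 727 at CT18 through a low of 290 at CT26 to 520 at CT38, and in the second cycle from 807 through 416 to 1169, for a shift of 0.46 ± 0.14. Hspa5 read 1484, 1503, 985, 1073, 1076 and 1248 in the first cycle and 1763, 1620, 1120, 1213, 1210 and 1963 in the second, for a shift of 0.26 ± 0.08. Chordc1 and Hspa5 were lowest at CT26 and CT50, Dnaja1 at CT34 and CT50, and in all 3 genes CT62 stood above its partner by the widest margin of the 6 pairs. Cct7 was between 381 and 489 in the first cycle and between 478 and 609 in the second. Stub1 was between 212 and 304 and then between 301 and 468, with the CT58 pool far above the other 5, and was higher in 5 pairs with the second CT18 array alone.

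The heat shock list as a whole leaned the same way, with the chosen Dnaja1 and Chordc1 included in the counts that follow. Of 17 genes of the cytosolic heat shock list well above background, 15 had a positive shift and the median was 0.12, beside 47.6% positive and a median of -0.01 over all 2958 genes. Despite its name, the list holds 2 genes for chaperones of mitochondria, Hspd1 (0.09 ± 0.06, higher in 5 pairs) and Hspe1 (0.08 ± 0.12, higher in 3). Of the 17, 9 were higher in 5 or 6 pairs and 2 in all pairs, beside 14.3% and 2.60% of all genes. Hsp90aa1, the inducible cytosolic Hsp90, had a shift of 0.27 ± 0.11 and Hspa8, the constitutive Hsp70, one of 0.19 ± 0.08, each higher in 5 of 6 pairs. None of the 17 passed the test. Of 9 folding genes of the endoplasmic reticulum, 4 had a positive shift, the median was -0.02 (0.02 with median centring) and 3 were higher in 5 or 6 pairs. Beside Hspa5 the positive shifts were those of Hsp90b1 (0.13 ± 0.09), Serpinh1 (0.12 ± 0.11) and Ppib (0.08 ± 0.08), and the widest negative ones those of P4hb (-0.17 ± 0.16) and Canx (-0.07 ± 0.22). The difference between the lists was not tested.

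Genes for mitochondrial proteins recurred among the higher genes, a set recognised after the values were seen. Such genes were not counted among the lower genes, which include Fahd1, a gene for a mitochondrial enzyme (shift -0.27). Of the higher ones, 8 encode proteins of the mitochondrial ribosome, which translates the few proteins of the mitochondrial genome: Mrpl12, Mrpl40, Mrps11, Mrpl17, Mrpl20, Mrpl4, Mrpl18 and Mrpl51. All genes with such a symbol were then counted. Of 45 well above background, 8 were higher in all pairs, 0 were lower, 33 had a positive shift, and the median shift was 0.08, beside 2.60% higher in all pairs and 47.6% positive over all genes. With quantile normalization 35 shifts were positive. Their median geometric mean of 478 lay near the 436 of all genes. Mrpl12 read 1041, 1083, 1044, 962, 1042 and 936 in the first cycle and 1157, 1189, 1253, 1262, 1361 and 1169 in the second, so the lowest second-cycle pool exceeded the highest first-cycle pool. Its shift was 0.27 ± 0.07, with an adjusted p of 0.579 (paired limma). Mrps11 also separated, at 166 to 218 against 220 to 246 by a narrower margin, with a shift of 0.23 ± 0.12. The shifts of the other 6 ran from 0.11 for Mrpl51 to 0.26 for Mrpl40.

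Some genes for the import of proteins into mitochondria were also higher in all pairs. Immp1l, a peptidase of the inner membrane, was between 441 and 661 and then between 613 and 934, a shift of 0.31 ± 0.09. Timm13 and Timm8b, small chaperones of the space between the membranes, had shifts of 0.17 ± 0.06 and 0.17 ± 0.07. Of the 12 Timm, Tomm and Immp genes well above background, all 12 had a positive shift (11 with quantile normalization) and 3 were higher in all pairs, again in a list drawn up after the values were seen. Over all genes, 47.6% had a positive shift and 2.60% were higher in all pairs. Uqcc1 (0.31 ± 0.10) and Foxred1 (0.25 ± 0.08) help to assemble respiratory complexes, and Hccs (0.25 ± 0.12) attaches haem to cytochrome c. Ndufb7 and Sdhb, subunits of the first and the second respiratory complex, had shifts of 0.15 ± 0.06 and 0.14 ± 0.06, and each was higher in 4 pairs with median centring. Of 27 respiratory chain and ATP synthase genes, 24 had a positive shift, with a median of 0.09, beside 17 and 0.03 with quantile normalization, and their median geometric mean was 4293. The 919 brightest probe sets, from 810 up, had a positive shift in 66.9%.

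Further higher genes of energy metabolism were Pgam1 and Ldhb of glycolysis (0.15 ± 0.06 and 0.12 ± 0.05), Tst, which detoxifies cyanide in mitochondria (0.44 ± 0.12), Gcsh of glycine cleavage (0.14 ± 0.07), Mcee of propionate breakdown (0.13 ± 0.07), and Alas1, the first enzyme of haem synthesis (0.19 ± 0.06). Of 14 glycolysis genes, 10 had a positive shift and 2 were higher in all pairs, beside 47.6% and 2.60% of all genes. Their median geometric mean was 1905. The 919 brightest probe sets, from 810 up, had a positive shift in 66.9% and were higher in all pairs in 5.01%. Pgam1 was higher in 4 pairs with median centring, and Ldhb in 5 with quantile normalization or the first CT18 array alone.

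**Figure D3:**
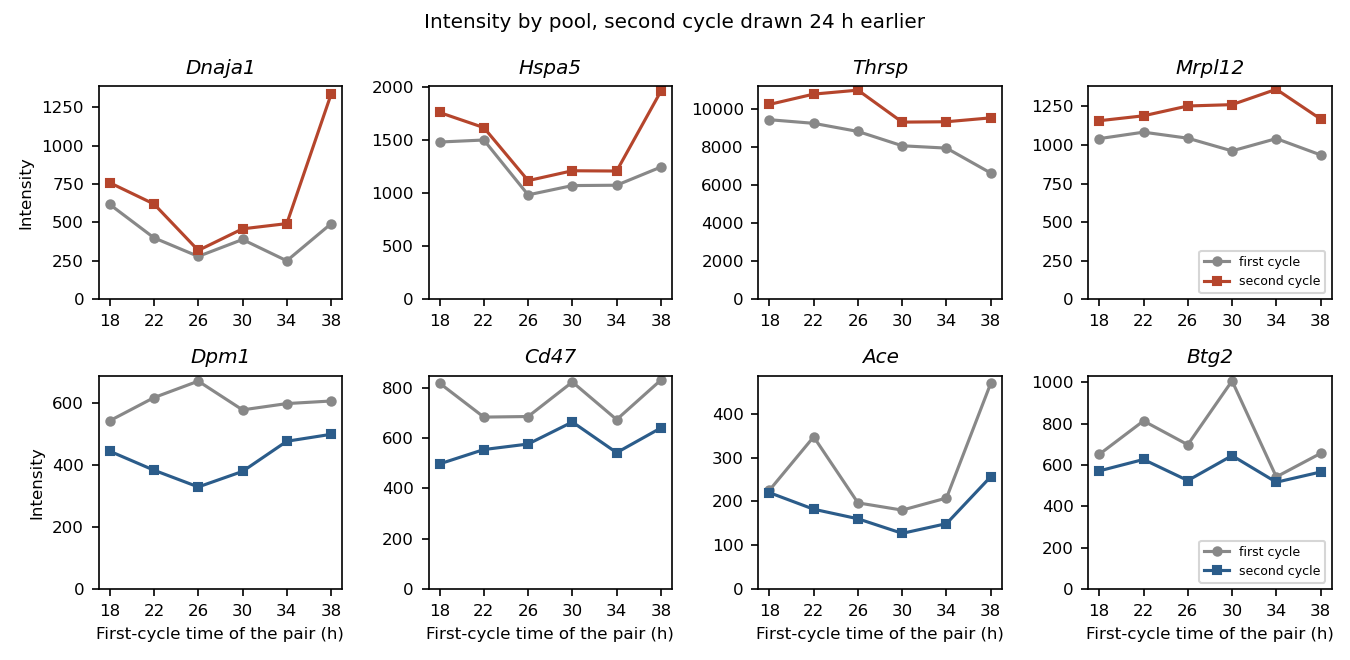
Intensity (vertical axes, starting at 0) of 8 genes by first-cycle time of the pair in hours (horizontal axes), with the second cycle drawn 24 h earlier. The upper row holds Dnaja1, Hspa5, Thrsp and Mrpl12, higher in every pair, and the lower row Dpm1, Cd47, Ace and Btg2, lower in every pair; the Dpm1, Cd47 and Mrpl12 lines do not overlap in range.

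The higher genes also included lipid genes of fat tissue. G0s2, an inhibitor of the fat-splitting lipase Atgl, read 1313, 681, 806, 703, 1522 and 1505 in the first cycle and 2729, 1106, 995, 1201, 1801 and 2763 in the second. The cycles overlapped, with the widest gap between CT18 and CT42. Its shift was 0.66 ± 0.11, with an unadjusted p of 0.000298 and an adjusted p of 0.371 (paired limma). Thrsp, a promoter of fat synthesis, was between 6649 and 9458 and then between 9331 and 11016, a shift of 0.27 ± 0.06, and Gpd1, which makes glycerol phosphate for triglycerides, between 4810 and 6644 and then between 6112 and 7734, a shift of 0.26 ± 0.07. With quantile normalization Thrsp and Gpd1 were each higher in 5 pairs. Further examples were picked after the values were seen. They were Bscl2, which encodes seipin of the lipid droplet (0.27 ± 0.08), and Mlycd, a malonyl-CoA decarboxylase (0.26 ± 0.09). Nr1h3, the oxysterol receptor LXR alpha (0.24 ± 0.10), and Agpat3, an acyltransferase (0.09 ± 0.07), were others. Hp, haptoglobin, which fat and liver secrete, had a shift of 0.22 ± 0.06. Scarb1, a lipoprotein receptor, went the other way and was lower in all pairs.

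Few genes of the lipid lists were higher in all pairs. Of 12 fatty acid synthesis genes, 8 had a positive shift with a median of 0.13 (0.07 with quantile normalization), and Srebf1, their transcription factor, had 0.64 ± 0.26 and was higher in 5 pairs. Of 20 adipocyte genes, 16 had a positive shift, the median was 0.10, 7 were higher in 5 or 6 pairs and Gpd1 alone in all. Over all genes, 47.6% had a positive shift, 14.3% were higher in 5 or 6 pairs and 2.60% in all, and with quantile normalization 13 of the 20 adipocyte genes had a positive shift and the median was 0.08. Median geometric means were 2536 for the adipocyte and 2408 for the fatty acid synthesis list. The 919 brightest probe sets, from 810 up, had a positive shift in 66.9% and were higher in all pairs in 5.01%. No defining fat marker was at the floor, and the shifts of Adipoq (0.00 ± 0.06) and Fabp4 (0.04 ± 0.05) were near 0. The mean centred log2 level of the adipocyte list lay between -0.16 and 0.08 in the first cycle and between -0.03 and 0.17 in the second and was higher in 5 of 6 pairs, while that of smooth muscle contractile genes lay between -0.07 and 0.23 and between -0.13 and 0.08 and was higher in 1. In bulk tissue, more cells of a type and more RNA per cell cannot be told apart. The part of the fat content of the pools in these shifts was not tested.

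The widest shifts of all belonged to probe sets with weaker evidence. Sf3a2, a splicing factor, had a shift of 2.08 ± 0.50, but 3 of its first-cycle pools were at the floor of 36.7, so that their differences are set by the floor, its first-cycle median of 110.1 lay under the limit of 200, its second CT18 array lay -2.77 from the first in log2 intensity, and its probe set carries a suffix that marks probes shared with other sequences. With the first CT18 array alone it was higher in 5 pairs, not 6. Hoxa4, a homeobox gene of body patterning, read 368, 983, 816, 1069, 241 and 240.4 and then 1177, 1805, 1138, 1545, 825 and 734.5, a shift of 1.16 ± 0.20 with an adjusted p of 0.371 (paired limma). The cycles overlapped, and its probe set also has a marked suffix. A second, dimmer Hoxa4 probe set had a shift of 0.17 ± 0.18 and was higher in 4 pairs.

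Other genes with larger shifts were Elof1, an elongation factor of transcription (0.61 ± 0.21), the zinc finger gene Zfp787 (0.55 ± 0.16), Gtf2i, a transcription factor (0.52 ± 0.13), Ppdpf (0.51 ± 0.14), Exosc5, a subunit of the RNA exosome (0.43 ± 0.12), Gosr2, a membrane fusion protein of the Golgi (0.40 ± 0.12), Lamtor1, which anchors nutrient signalling to lysosomes (0.39 ± 0.10), and Nf2, the tumour suppressor merlin (0.36 ± 0.13). The direction of Elof1, Ppdpf, Lamtor1 and Nf2 in all pairs was lost with the first CT18 array alone, and with median centring Elof1, Zfp787, Ppdpf and Exosc5 were higher in 5 pairs. Nf2 was between 170 and 212 and then between 213 and 303, so that its groups met without overlapping. Swi5, a protein of DNA repair, was between 693 and 798 and then between 843 and 929, and Bud31, a splicing factor, between 776 and 889.9 and then between 898 and 1007. The Bud31 probe set has a marked suffix, and a second, dimmer one had a shift of -0.19 ± 0.15 and was lower in 5 pairs.

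**Figure D4:**
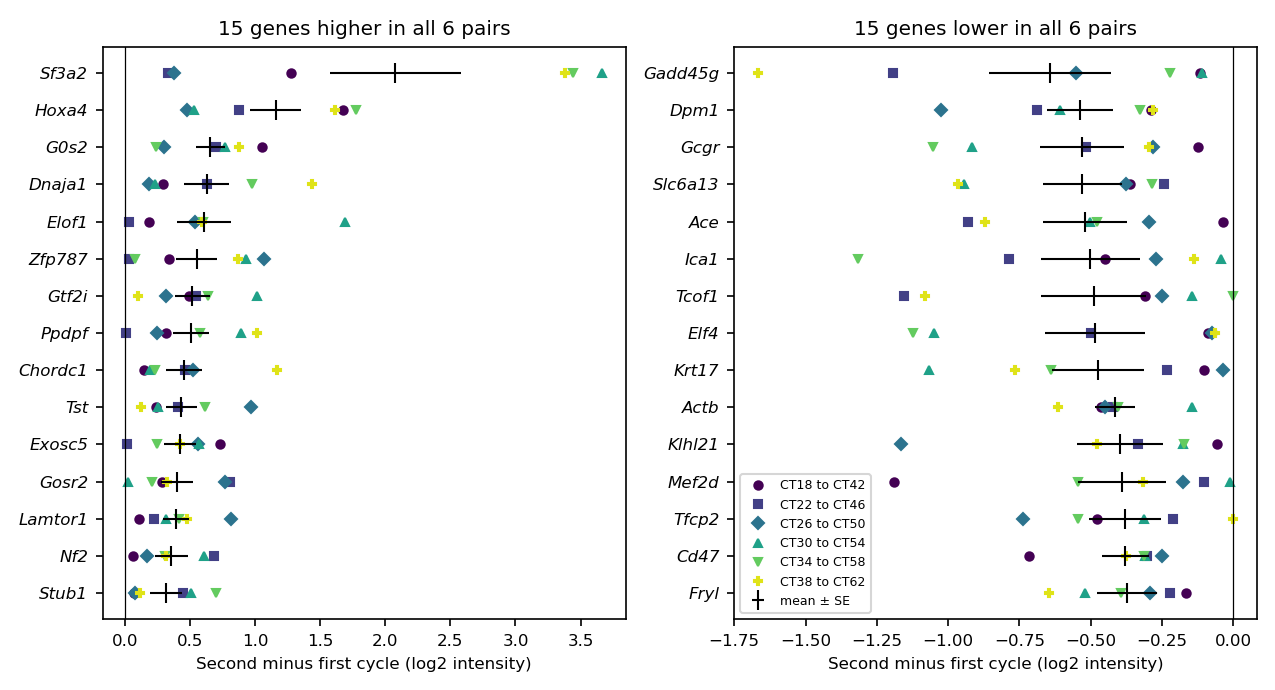
Second minus first cycle in log2 intensity (horizontal axis) for the 15 genes with the largest mean shift in each direction, with 1 coloured mark per pair and the mean ± SE of the paired limma fit in black. All marks of the higher genes lie to the right of 0 and all marks of the lower genes to the left, and for Sf3a2 the 3 marks from 3.38 to 3.66 are differences against the floor, and the measured ones lie between 0.33 and 1.28.

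The lower genes included 3 of the immediate early list, genes that cells switch on briefly after a stimulus. Gadd45g, a stress sensor, read 244, 626, 604, 476, 663 and 774 and then 225, 274, 412, 441, 569 and 244, a shift of -0.64 ± 0.21 with an adjusted p of 0.579 (paired limma). Most of it came from CT22 to CT46 and CT38 to CT62. With median centring or the first CT18 array alone Gadd45g was lower in 5 pairs. Zfp36, which speeds the decay of inflammatory messages, was between 171 and 282 and then between 146 and 267, a shift of -0.35 ± 0.12. Btg2, which slows proliferation, read 652, 813, 698, 1007, 543 and 656 and then 572, 627, 525, 645, 517 and 566, a shift of -0.32 ± 0.09. Its second-cycle pools all lay below the first-cycle median of 677. With the first CT18 array alone Btg2 was lower in 5 pairs. Of 13 immediate early and CCN genes well above background, 9 had a negative shift, the median was -0.13, and these 3 were lower in all pairs, beside 52.4% negative and 2.06% lower in all pairs over all genes. Egr1 had a shift of -0.31 ± 0.19 and Dusp1 one of 0.10 ± 0.16.

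The Btg2 promoter is printed because it holds TGACGTCA, the cAMP response element that links such genes to kinase signals. The window is chr1:134079156-134079405 of GRCm38.p6 in the RefSeq table, read on the minus strand, with the match in capitals 166 bases before the start.

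Btg2: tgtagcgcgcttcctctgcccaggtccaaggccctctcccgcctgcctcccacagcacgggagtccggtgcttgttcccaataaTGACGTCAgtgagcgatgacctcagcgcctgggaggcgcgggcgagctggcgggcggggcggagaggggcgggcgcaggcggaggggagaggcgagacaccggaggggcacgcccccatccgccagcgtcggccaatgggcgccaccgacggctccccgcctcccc

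The letters, which read the same on both strands, stood in 2 of the 50 matched lower genes (4%), in 3.08% of matched genes well above background and in 1.77% of all genes in the table. The E-box CACGTG, the letters that Clock and Arntl bind, stood in 9 of the 50 lower genes (18%), in 5 of the 66 higher genes (7.58%) and in 11.0% of genes well above background. A match is a string of letters and not a measured site.

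Glucocorticoid-induced genes were lower on balance without being lower throughout. Of 12 well above background, 9 had a negative shift and the median was -0.24, but only Zfp36 was lower in all pairs. Over all genes, 52.4% had a negative shift and 2.06% were lower in all pairs. Pdk4, which spares glucose in fasting (-0.68 ± 0.40), Zbtb16 (-0.73 ± 0.50), Angptl4 (-0.58 ± 0.30) and Klf9 (-0.24 ± 0.13) had large or middling negative shifts with errors to match, and Pdk4, Zbtb16 and Klf9 were each lower in 5 of 6 pairs. None passed the test.

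Further lower genes serve glycosylation, the cell surface, the cytoskeleton and the matrix, and are examples picked after the values were seen; Actg1, Myo1c, Dynll1 and Cd81, of the same kinds, were higher in all pairs. Dpm1, which makes the mannose donor for glycoproteins, read 542, 617, 670.15, 577, 598 and 606 and then 444, 383, 329, 379, 476 and 499. Every second-cycle pool was below every first-cycle pool, and the shift was -0.54 ± 0.12 with an adjusted p of 0.579 (paired limma). Cd47, the surface signal that keeps macrophages from eating a cell, was between 674 and 831 and then between 498 and 664, again with no overlap, a shift of -0.38 ± 0.08. Lims1, which ties integrins to actin, was between 408 and 524 and then between 312 and 402, a shift of -0.37 ± 0.10. Fn1, fibronectin of the matrix, was between 2026 and 2648 and then between 1777 and 2132, a shift of -0.20 ± 0.07, and was lower in 4 pairs with median centring. Msn, moesin (-0.12 ± 0.07), and Tjp1 of tight junctions (-0.13 ± 0.09) had smaller shifts.

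Ace, the enzyme that makes angiotensin II in the vessel wall, read 225, 347, 197, 180.2, 208 and 469 and then 220.03, 182, 160.4, 127, 149 and 256. Its shift was -0.52 ± 0.15, the cycles overlapped, and the 2 CT18 arrays differed by 1.06, so that with the first of them alone it was lower in 5 pairs. With median centring or quantile normalization Ace was also lower in 5 pairs. A second, dimmer Ace probe set had a shift of -0.10 ± 0.18 and was lower in 4 pairs. Of 5 vascular tone genes well above background, 4 had negative shifts and Ace was the one lower in all pairs. Over all genes, 52.4% had a negative shift and 2.06% were lower in all pairs. The matrix as a whole did not follow Fn1: of 21 elastic fibre and collagen genes, 14 had negative shifts with a median of -0.02, which median centring turned to 0.02.

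Actb, cytoplasmic beta actin, gave conflicting readings. The chosen probe set was between 1241 and 2589 and then between 938 and 1898, a shift of -0.42 ± 0.07 with an adjusted p of 0.371 (paired limma), and it carries a suffix for shared probes. Another Actb probe set had a shift of -0.11 ± 0.07 and was lower in 4 pairs. The 3 control probe sets for Actb had shifts of 0.10 ± 0.13 at the 3′ end, 0.14 ± 0.14 in the middle and 0.12 ± 0.22 at the 5′ end (SD over 6 pairs), each higher in 4 or 5 pairs. Actg1, the sister gene for gamma actin, was higher in all pairs with a shift of 0.18 ± 0.06. The probe sets for Actb thus did not share a direction.

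Several lower genes act on chromatin or transcription, and they are given as examples picked after the values were seen. Mef2d, a muscle transcription factor (-0.39 ± 0.15), Tfcp2 (-0.38 ± 0.13), Elf4 of the ETS family (-0.48 ± 0.18) and Sp3 (-0.24 ± 0.08) bind DNA. Sin3a, a corepressor scaffold (-0.29 ± 0.11), Smarca2 and Chd1, chromatin remodellers (-0.20 ± 0.10 and -0.26 ± 0.14), Vps72, a histone chaperone subunit (-0.36 ± 0.12), Hp1bp3, a linker-histone relative (-0.35 ± 0.10), and Top2b, a topoisomerase (-0.28 ± 0.12), act on chromatin. Hp1bp3 was between 662 and 724 in the first cycle and between 460 and 669.9 in the second, and Sp3 between 387 and 629 and between 329.6 and 494. With median centring Mef2d and Tfcp2 were lower in 5 pairs and Elf4 in 4. The pool at CT54 was the lowest of the second cycle for Vps72, at 128.

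Other lower genes serve endosomes and membrane sorting, again picked after the values were seen: Vps4a and Vps4b, which disassemble sorting complexes (-0.17 ± 0.08 and -0.25 ± 0.08), Eps15 of endocytosis (-0.24 ± 0.09), Ap3b1, an adaptor (-0.28 ± 0.12), and Rab5c (-0.09 ± 0.07). Furin, a protease that trims hormone precursors, was between 606 and 774 and then between 437 and 731, a shift of -0.30 ± 0.09. Gcgr, the glucagon receptor (-0.53 ± 0.15), and Slc6a13, a GABA transporter (-0.53 ± 0.14), were lower in 5 pairs with the first CT18 array alone, and their CT18 arrays differed by 1.15 and 0.81. Ica1 (-0.50 ± 0.17), Tcof1 (-0.49 ± 0.19), Krt17 (-0.47 ± 0.16), Klhl21 (-0.40 ± 0.15) and Fryl (-0.37 ± 0.10) completed the 15 with the widest shifts. With median centring Ica1, Tcof1 and Klhl21 were lower in 5 pairs, and with quantile normalization in 5, 4 and 5. Fryl did not overlap between cycles, at 316 to 428 and 203 to 315, but its CT18 arrays differed by 0.46 and with the first of them alone it was lower in 5 pairs.

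No gene of the clock was among those chosen. Only Clock, Per3, Cry1, Nr1d1, Bhlhe40, Csnk1d and Tef were well above background and so could be chosen. Over all genes at that level, 2.60% were higher and 2.06% lower in all pairs, so few or no clock genes would be chosen at those shares. Of the 15 clock genes with a level above the filter, the shifts ran from -0.57 ± 0.27 for Per1 to 0.58 ± 0.28 for Bhlhe40, a repressor of Clock and Arntl targets. Bhlhe40 was higher in 4 pairs and Per1 lower in 4, and the second Per1 array at CT18 lay -2.02 from the first. Nr1d2, which encodes REV-ERB beta, was higher in 5 pairs, with a shift of 0.17 ± 0.15. Clock (0.00 ± 0.14), Per2 (0.02 ± 0.22) and Cry2 (0.01 ± 0.21) had shifts near 0, and Arntl (-0.27 ± 0.19), Per3 (-0.16 ± 0.16), Cry1 (-0.16 ± 0.15), Nr1d1 (-0.14 ± 0.18) and Csnk1d (-0.30 ± 0.13) had negative ones. Tef (-0.07 ± 0.36) and Nfil3 (-0.28 ± 0.44) had the widest errors, and Dbp was at the floor in 7 pools. The lowest adjusted p among the clock genes was 0.620 for Csnk1d (paired limma).

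Markers of neighbouring tissues varied widely between pools. Of their 54 probe sets well above background, 0 were among those chosen, beside 4.95% of all 3674, and their part in the shifts of other genes was not tested. The skeletal muscle list was higher in the second cycle in 3 of 6 pairs, with a mean centred level from -0.94 to 1.38 in the first cycle and from -1.04 to 0.87 in the second. All 12 of its genes well above background had negative shifts, with a median of -0.19, and 0 were lower in all pairs. The thymocyte list was higher in 4 pairs and ranged from -1.21 to 0.84 and from -1.42 to 1.02, and its 7 genes had a median of -0.35 with 0 lower in all pairs. By pair, their median difference was -3.99 in CT18 to CT42 and between -0.73 and 1.45 in the others. The B cell list was higher in 1 pair and ranged from -0.09 to 0.73 and from -0.63 to 0.58. Its genes well above background were Ms4a1 (-0.45 ± 0.12, lower in 5 pairs) and Pax5 (-0.29 ± 0.21, lower in 4). The cardiac and erythroid lists were each higher in 3 pairs.

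**Figure D5:**
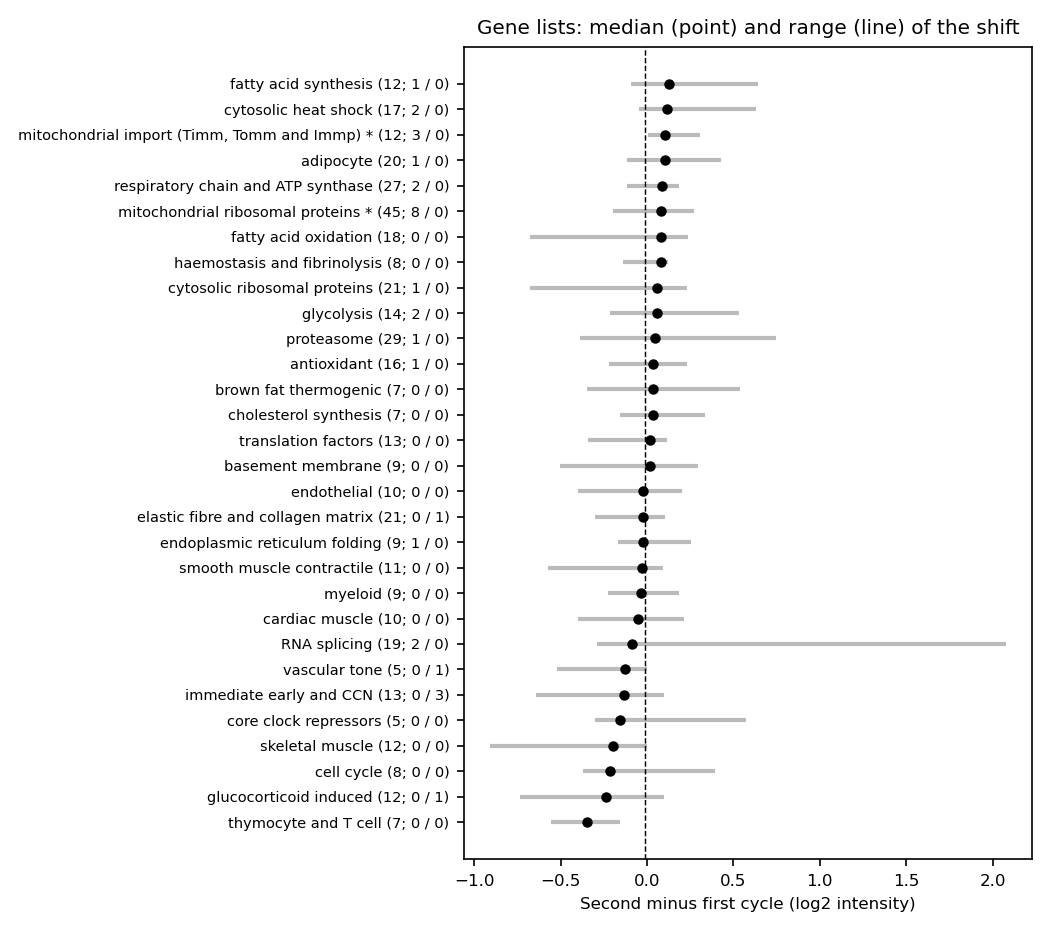
Median (point) and range (line) of second minus first cycle in log2 intensity (horizontal axis) over the genes well above background in each list with at least 5 such genes; brackets give the number of genes and how many were higher / lower in all 6 pairs, an asterisk marks lists drawn up after the values were seen, and the dashed line is the median of all 2958 genes. Fatty acid synthesis, heat shock and mitochondrial lists lie to the right of the line and thymocyte, glucocorticoid and cell cycle lists to the left.

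Around the limit of 200, the dimmest chosen genes were Elof1 at a geometric mean of 204 and Vps72 at 207, and the brightest left out in each direction were Tdrp at 199 (0.47 ± 0.15) and Vps26c at 197 (-0.17 ± 0.11). Below the limit lay the 3 genes with the lowest p besides those named: Chrne, a subunit of the muscle acetylcholine receptor (1.61 ± 0.25), Fcer2a, the B cell receptor CD23 (-1.71 ± 0.28), and Dcps, a scavenger of mRNA caps (-1.38 ± 0.23), each with an adjusted p of 0.371 (paired limma) and with 1 to 4 pools at the floor. Where a chosen gene had a further probe set above the filter, its shift had the same sign for 10 of 11 among the higher genes and for 9 of 12 among the lower, beside 57.1% of 743 over all genes.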

How the data were processed

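The deposited table gives 1 linear intensity per probe set for each of 13 arrays, with values below 0; no source used here names the authors' software, and the values show each array scaled to a common trimmed mean. Of 12488 probe sets, 66 controls were left out. Gene names came from the platform annotation, which pairs 10833 probe sets with 1 gene, 396 with several and leaves 1193 unlisted. Intensities below 36.7, the 20th percentile of the positive values, were raised to it and log2 was taken. The 2 CT18 arrays, whose relation the labels do not give, were averaged. Probe sets whose mean log2 intensity was above the 40th percentile (an intensity of 48.5) were kept, 7453 in all, and fitted in limma 3.58.1 (R 4.3.3) with time of day and cycle as factors, 5 residual degrees of freedom, a trended eBayes variance and Benjamini-Hochberg adjustment. The fit was tested on simulated data.

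Each pool is 1 sample, so p-values measure the spread between 6 pair differences, and the 13 arrays limit the precision. The pairs rest on collection times and not on replicate numbers: deviations of pools at the same time correlated at 0.00 to 0.34, and 3 of 6 exceeded 0.1. CT22, CT34 and CT38 correlated most with their own partners. CT18 correlated more with CT46 than with CT42 (0.34 and 0.05), and CT26 more with CT58 than with CT50 (0.14 and 0.08). CT30 correlated more with CT46 than with CT54 (0.20 and 0.00). The genes described and the gene lists were chosen with earlier results of these data known. Named genes were the 15 largest shifts in each direction, the 3 lowest p-values in each direction, all clock genes above the filter, up to 4 chosen genes of each other list, and those nearest the limit of 200; further ones were named after their values were seen. Alternatives covered the floor, filter, scaling, CT18 arrays, covariates for neighbouring tissue, the pairing and each pair left out. Promoters came from a RefSeq table of GRCm38.p6 and no genome was used here.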

Additional observations from a re-analysis of the deposited data

Results flagged for a closer look

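Of 123 sets of 6 pools tested, 1 cycle of 1 named gene each, 7 held a pool set apart from the other 5 by a gap wide for their range, and chance gives about 1 in 20. Stub1 was 468 at CT58, beside 301 to 322 in the other second-cycle pools, and Cry2 was 221 at CT46, beside 109 to 139. Vps72 was 128 at CT54, beside 184 to 215. In the first cycle, Tcof1 was 196 at CT26, beside 253 to 291, Actb was 1241 at CT34, beside 1976 to 2589, and Zfp36 was 171 at CT18, beside 234 to 282. Fryl was 428 at CT30, beside 316 to 354. Each value is 1 array, or the mean of 2 for CT18.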

How the results depend on the processing

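The count of probe sets past an adjusted p of 0.05 was 0 under all 21 alternatives run, with unadjusted p under 0.05 for 382 to 761; the lowest adjusted p was 0.0845, without the pair CT38 and CT62. Fits without the pairing by time of day (no block) also gave 0. The lower count of 78 became 48 with median centring, 144 with a limit of 100 and 27 with a limit of 400. Leaving out 1 pair asks for 5 pairs only, with the limit of 200 applied to the pools left, and gave 136 to 235 higher and 106 to 198 lower probe sets. Of the chosen probe sets, 62 higher and 35 lower kept 6 pairs with median centring and 62 and 47 with quantile normalization, and 73 and 61 with each CT18 array alone, an alternative chosen after seeing the data. So were the sets without marked suffixes, which left 82 and 63. None of the 780 shifts of named genes crossed the threshold, and 766 kept their sign. The 14 that turned belong to 6 clock genes and to no chosen gene. Clock became 0.033 with quantile normalization, 0.040 with median centring and 0.024 with the first CT18 array alone. With 1 pair left out, the ranges were -0.081 to 0.068 for Clock, -0.076 to 0.18 for Per2, -0.17 to 0.15 for Cry2, -0.28 to 0.024 for Nr1d1, -0.32 to 0.34 for Tef and -0.57 to 0.23 for Nfil3. With 1 pool per time and cycle, a single array decides each pair.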

Other observations

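Of 29 proteasome genes well above background, 18 had a positive shift, with a median of 0.05, and 10 were higher in 5 or 6 pairs, beside 14.3% of all genes. Of the 29, 1 was higher in all pairs, near the 2.60% of all genes: Psmb2 (0.09 ± 0.06), which was higher in 5 pairs with median centring. Of 8 cell cycle genes, 6 had a negative shift, with a median of -0.21 and 0 lower in all pairs. Over all genes, 47.6% had a positive and 52.4% a negative shift, and 2.06% were lower in all pairs. The long noncoding RNAs Meg3 (-0.36 ± 0.14) and Norad (-0.12 ± 0.06) were lower in all 6 pairs, and both were named after their values were seen.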
